A study of Mus musculus with 46 samples.

Results

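The 10 genes described here are the Toll-like receptors Tlr1, Tlr2, Tlr3, Tlr4, Tlr6, Tlr7, Tlr8 and Tlr9 and the co-receptors Cd14 and Ly96, measured in mouse bone marrow-derived macrophages (BMDM) stimulated through Tlr4 while SWI/SNF chromatin remodelling complexes were perturbed. They were found in the tables by gene symbol. They are 10 of the 24537 genes listed in experiments 1 and 3 and 10 of the 25124 listed in experiments 2 and 4. All 10 were found in each of the 4 experiments, and all 10 reached 1 TPM (a level per transcript length, scaled to the library) in at least 2 libraries of each experiment, the minimum for testing.

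BMDM are macrophages grown from bone marrow in culture. PolyA RNA was sequenced in 4 experiments labelled with 46 samples in 23 groups of 2, of which 45 libraries were used here. Experiment 1 compared wild-type cells at 0, 1 and 4 hr of lipid A with cells given ACBI1, BRM014 or BRDK98 and lipid A for 4 hr. Experiment 4 gave the same 3 compounds at 20 and 60 min of lipid A, beside wild-type controls at 0, 20 and 60 min. In experiment 2 the cells were Arid1af/f, taken after 0, 1 and 4 hr with LPS, or Arid1a-/-, taken after 1 and 4 hr. In experiment 3 they were Pbrm1f/f, taken after 0 and 4 hr with lipid A, or Pbrm1-/-, taken after 4 hr.

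Lipid A is the membrane anchor of bacterial lipopolysaccharide (LPS) and the portion that the Tlr4 complex senses. Smarca2 and Smarca4 are the alternative motors of SWI/SNF. ACBI1 causes both motors, and also Pbrm1, to be degraded, while BRM014 blocks ATP hydrolysis by the motors. For BRDK98 only a code name is used. Arid1a is the defining subunit of one form of SWI/SNF (BAF) and Pbrm1 of another (PBAF). The labels give neither doses, nor a vehicle for controls, nor the time cells spent with a compound before lipid A, and they name no Cre driver, no animals and no separate cultures. The p-values therefore rest on the spread between libraries of the same group, pooled over all groups of an experiment. That spread may be technical. Compound-treated or knockout cells without stimulus were not analysed here.

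Toll-like receptors are membrane proteins that recognise microbial molecules and signal through the adaptors Myd88 and Ticam1 (TRIF) to NF-kB, MAP kinases and interferon regulatory factors. Tlr4 senses LPS at the cell surface together with the small secreted protein Ly96 (MD-2), to which Cd14 hands the LPS. Tlr2 pairs with Tlr1 or Tlr6 to sense bacterial lipopeptides, whereas Tlr3, Tlr7, Tlr8 and Tlr9 sense nucleic acids in endosomes and depend on the chaperone Unc93b1 to get there. Macrophages express most of these receptors, and many of the receptor genes themselves respond to Tlr4 signalling.

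Sequences before a start listed by RefSeq are shown for genes the results below turn on: Tlr8 and Tlr9, which were lower with BRM014, and Tlr2 and Tlr3, which lipid A or LPS raised at different times. They come from RefSeq (GRCm38.p6) and are written 5′ to 3′ on the gene's strand, with a motif match in capitals. The 250 bases of Tlr9 (chr9:106222348-106222597, plus strand) and Tlr8 (chrX:167264330-167264579, minus strand) each hold a match to the PU.1 core GAGGAA, on the opposite strand in Tlr8, and 30-base sites of Tlr2 (chr3:83841762-83841791, minus strand) and Tlr3 (chr8:45410572-45410601, minus strand) hold a match to the NF-kB consensus.
Tlr9: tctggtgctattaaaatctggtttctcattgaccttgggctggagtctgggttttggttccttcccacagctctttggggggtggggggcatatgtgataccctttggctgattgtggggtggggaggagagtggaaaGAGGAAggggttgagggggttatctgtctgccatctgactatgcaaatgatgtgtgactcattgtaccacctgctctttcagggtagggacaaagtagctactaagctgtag
Tlr8: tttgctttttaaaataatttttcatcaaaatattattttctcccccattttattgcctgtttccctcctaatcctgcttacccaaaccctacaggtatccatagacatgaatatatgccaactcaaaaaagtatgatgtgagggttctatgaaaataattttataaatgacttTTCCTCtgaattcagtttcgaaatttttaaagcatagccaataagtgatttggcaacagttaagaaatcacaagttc
Tlr2: taggacacctGGGGAATTCCCacacggagc
Tlr3: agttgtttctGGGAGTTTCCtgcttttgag

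The RefSeq table matched 6 of the 10 genes, with 8 windows of 250 bases before a start. Tlr4, Tlr7, Cd14 and Ly96 were not among them. Each motif was searched on both strands. The Tlr2 site combines 3 overlapping matches, the farthest 173 bases before the start. The others are the same bases, at 172, matched on each strand. The Tlr3 match begins 211 bases before the start RefSeq lists. The printed Tlr3 site lies 33 to 62 bases before the start of the gene model counted in experiments 1 and 3 but inside the model counted in experiments 2 and 4, and 178 of the 250 bases of that window are annotated as exonic. The PU.1 match of Tlr9 lies 112 bases before its start and that of Tlr8 77 bases. In Tlr1 a further one lies 23 bases before a start other than that of the counted model, whose own window held 0 matches to any of the motifs. For Tlr6, the window that ends at the counted model of experiments 2 and 4 also held 0 matches, and its other window, with 2 overlapping matches to the core of the interferon-stimulated response element, lies inside the counted models and is not shown. AP-1 (TGANTCA) matched only in Tlr9, 58 bases before the start, and C/EBP (TTGCNNAA) in Tlr3, Tlr6 and Tlr8, at 95, 89 and 29 bases. Among 32851 windows of the same length, 7.3% held the NF-kB consensus, 3.0% the interferon element, 23.3% the PU.1 core, 6.7% AP-1 and 9.6% C/EBP. These matches describe letters, not binding.

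In the coordinates of the deposited tables (mm10), Cd14 lies on chromosome 18 from 36725064 to 36726815, Ly96 on chromosome 1 from 16688456 to 16709605 and Tlr4 on chromosome 4 from 66827551 to 66846581. Tlr2 lies on chromosome 3 from 83836272 to 83841608, and Tlr1 (64924680 to 64932699) neighbours Tlr6 (64953095 to 64960034 in experiments 1 and 3) on chromosome 5. Tlr3 lies on chromosome 8 from 45395665, Tlr9 on chromosome 9 from 106222598 to 106226876, and Tlr8 (167241123 to 167264329) neighbours Tlr7 (167304926 to 167330571) on chromosome X. Each value is a TPM over the exons of 1 transcript model per gene.

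Depth, purity and counting bear on all values below. Libraries held 8466037 to 31491682 reads per the file headers, of which 7015057 to 27528228 fell on exons, so that 3 reads on a 2 kb transcript are worth 0.0654 to 0.298 TPM. The 4 hr control of experiment 1 rests on 1 library, whose spread is assumed to be that of the other groups, because a second column under that name held identical values for all 24537 genes. All 8 macrophage markers reached 1 TPM in each experiment, while the highest lymphocyte marker stayed at 1.06 TPM (Nkg7) and Cd3e was at 0 in experiments 1 to 3. Granulocyte markers, led by S100a8 and S100a9, summed to 4.57 to 41.7 TPM in experiments 1 and 2 and to 231.9 to 444 TPM in experiments 3 and 4. The first 1 hr library of experiment 1 held 146 TPM of stromal markers against 2.95 TPM in the other, and within-group differences were wide for the 60 min BRM014 libraries of experiment 4 and the 4 hr control libraries of experiment 3. Reads were counted on both strands. Tlr3 overlaps the antisense gene Gm45542 over 7.32% of its exonic bases, and Tlr1 and Tlr6 share 454 stretches of 50 bases, 13.63% of those of Tlr1 and 12.26% of those of Tlr6, so reads of that pair may be split between them.

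At rest, the endosomal RNA sensors Tlr7 and Tlr8 and the LPS co-receptor Cd14 were the most abundant of the 10 transcripts per length. Cd14 lay between 234.9 and 421 TPM (median 327) over the 8 resting libraries, Tlr7 between 196 and 317 TPM (median 217) and Tlr8 between 149 and 231 TPM (median 177). Each of these ranges overlapped the next, so their order is not separated beyond the spread. Tlr2 followed with a median of 94.2 TPM, then Tlr9 with 54.0, Tlr1 with 40.8, Ly96 with 38.3 and Tlr4 with 37.9 TPM. Tlr6 (13.3 TPM) and Tlr3 (11.6 TPM) had the lowest medians. Their ranges overlapped each other but stayed below those of Ly96 and Tlr4. Tlr4 itself, the receptor of the stimulus, spanned only 29.0 to 47.5 TPM. Tlr1 and Tlr9 varied most between experiments: in experiment 2 they stood at 6.73 to 7.90 and 8.71 to 10.1 TPM, against at least 36.0 and 47.1 TPM in each other resting library. Tlr1 and Tlr9 both lay below Tlr6 in experiment 2, where Tlr6 stood at 11.2 and 13.2 TPM. The tables were made separately for each experiment, so levels are set side by side across them without a test.

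Lipid A or LPS raised Cd14 and Tlr2 within 1 hr and Tlr3, Tlr1 and Tlr6 by 4 hr, while Tlr8 and Tlr9 fell at 1 hr. Cd14, the protein that delivers LPS to the receptor complex, stood at 419 and 387 TPM at 0 hr in experiment 1, at 2722 and 2764 TPM at 1 hr and at 825 TPM at 4 hr. Both 1 hr libraries lay far above both resting libraries. The rise at 1 hr was 2.77 ± 0.08 on the log2(TPM + 1) scale (SE; limma, adjusted p = 1.74e-09), or 6.81-fold. Values on this scale understate the changes of low genes. In bulk RNA, fewer cells of a type and less RNA per cell cannot be told apart. From 1 to 4 hr Cd14 fell by 1.73 ± 0.10 in that experiment (limma, adjusted p = 1.71e-07), yet at 4 hr it was still above rest, by 1.03 ± 0.10 (adjusted p = 4.04e-06).

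Cd14 rose in the same way in the other experiments at 1 hr. In experiment 2 (LPS) it went from 266 and 234.9 TPM to 1766 and 1696 TPM at 1 hr and remained at 1522 and 1460 TPM at 4 hr. In experiment 4 (lipid A) it stood at 421 and 413 TPM at rest, 666 and 602 TPM at 20 min and 2661 and 2644 TPM at 60 min. The 1 hr libraries were separated from rest in both, with log2 changes of 2.79 ± 0.09 in experiment 2 (limma, adjusted p = 7.90e-09) and 2.67 ± 0.12 in experiment 4 (adjusted p = 8.05e-10). At 20 min the difference of 0.60 ± 0.12 passed on TPM as deposited (limma, adjusted p = 0.0269) but not after median-ratio scaling (adjusted p = 0.0681), and a gene is called only where both pass. In experiment 3, Cd14 went from 251 and 261 TPM to 1570 and 1195 TPM at 4 hr, a log2 change of 2.42 ± 0.16 (limma, adjusted p = 3.25e-06).

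Tlr2, the lipopeptide receptor, followed Cd14 at 1 hr but parted at 4 hr between experiments. In experiment 1 it stood at 194 and 152 TPM at rest, 1038 and 959 TPM at 1 hr and 140.1 TPM at 4 hr. The 4 hr library was below both resting libraries, but the difference of -0.29 was not called and turned to 0.69 under median-ratio scaling and 0.59 with voom, and the authors' deposited table lists it as 0.73. Tlr2 rose by 2.53 ± 0.11 at 1 hr (limma, adjusted p = 3.24e-08) and fell by 2.82 ± 0.13 from 1 to 4 hr (adjusted p = 5.09e-08), a 7.13-fold decrease. In experiment 2 it went from 72.5 and 61.7 TPM to 470.0 and 447 TPM at 1 hr and stayed at 416 and 381 TPM at 4 hr. The 4 hr libraries lay below the 1 hr ones, but the difference of -0.20 (95% interval -0.41 to 0.01) was not called, and the rise over rest at 4 hr was 2.56 ± 0.09 (limma, adjusted p = 2.93e-09). In experiment 4 Tlr2 went from 114 and 98.8 TPM at rest to 122 and 114 TPM at 20 min and 543 and 578 TPM at 60 min, so the 20 min libraries lay barely above rest. The difference at 20 min was not called (0.16, limma, adjusted p = 0.362), and the rise at 60 min was 5.28-fold (log2 change 2.39 ± 0.09, adjusted p = 7.07e-11). In experiment 3, it stood at 89.7 and 83.6 TPM at rest and 135 and 142 TPM at 4 hr (0.67 ± 0.16, adjusted p = 0.003). Experiment 2 used LPS and the others lipid A, and stimulus and experiment cannot be told apart.

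Tlr3, the double-stranded RNA sensor, rose by 4 hr in each of the 3 experiments with that time. It stood at 12.2 and 8.08 TPM at rest in experiment 1, at 6.84 and 5.67 TPM at 1 hr and at 103 TPM at 4 hr. In experiment 2 it stood at 5.78 and 6.42, then 5.34 and 4.94, then 98.1 and 83.6 TPM at the same times. In experiment 3 it went from 16.6 and 12.1 TPM to 138 and 112 TPM at 4 hr. All 4 hr libraries lay above all earlier ones. The 4 hr log2 changes were 3.25 ± 0.21, 3.69 ± 0.12 and 3.04 ± 0.19 (limma, adjusted p = 3.88e-07, 1.40e-09 and 1.97e-06), and the means rose 10.1-, 14.9- and 8.69-fold. Before that rise Tlr3 was lower in experiment 4: 15.6 and 11.2 TPM at rest against 7.30 and 5.96 TPM at 60 min, a decrease of 0.90 ± 0.19 (limma, adjusted p = 0.00109). That call was lost without the first resting library (-0.68) or the second 60 min control library (-0.77).

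The Tlr2 partners Tlr1 and Tlr6 also rose by 4 hr. Tlr1 stood at 49.4 and 36.0 TPM at rest in experiment 1 and at 101 TPM at 4 hr, and in experiment 2 it went from 6.73 and 7.90 TPM to 54.2 and 43.9 TPM. Tlr6 went from 17.2 and 13.3 TPM to 38.3 TPM in experiment 1 and from 11.2 and 13.2 TPM to 46.8 and 41.6 TPM in experiment 2. Both genes were separated from rest in both experiments. Tlr1 rose by 1.25 ± 0.17, 2.59 ± 0.19 and, in experiment 3, 1.83 ± 0.17 (limma, adjusted p = 5.46e-05, 5.05e-07 and 1.98e-05). Tlr6 rose by 1.29 ± 0.16, 1.77 ± 0.14 and 1.497 ± 0.20 (limma, adjusted p = 2.36e-05, 6.57e-07 and 0.000142). At 1 hr Tlr1 was called in experiment 2 only, at 0.65 ± 0.19 (adjusted p = 0.0167), and not without the first resting library (0.55) or either 1 hr control library (0.71 and 0.58).

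Tlr8 and Tlr9, sensors of RNA and of CpG DNA, fell early. Tlr8 stood at 197 and 156 TPM at rest in experiment 1 and at 98.1 and 98.9 TPM at 1 hr. In experiment 2 it went from 149 and 175 to 90.5 and 87.5 TPM, and in experiment 4 from 205 and 179 to 99.8 and 94.1 TPM at 60 min. No stimulated library reached a resting one. Tlr8 fell by 0.83 ± 0.12, 0.86 ± 0.16 and 0.97 ± 0.16 (limma, adjusted p = 0.000176, 0.00219 and 0.000225). The median log2 change over all tested genes was -0.38, -0.15 and -0.33 in these comparisons. Those medians also stand beside the 1 hr changes of Tlr9 and Tlr4 below. The authors' deposited tables list Tlr8 at -0.41, -0.70 and -0.60. Without the first resting library (-0.66) or the first 1 hr library (-0.82), the library with stromal markers, the experiment 1 decrease was no longer called, whereas Cd14 (2.78), Tlr2 (2.47), Tlr4 (-0.91) and Tlr9 (-0.90) were called without that 1 hr library.

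Tlr9 fell by 0.99 ± 0.11 at 1 hr in experiment 1 (limma, adjusted p = 4.72e-05), from 52.0 and 47.1 TPM to 22.8 and 26.0 TPM. In experiment 2 it went from 8.71 and 10.1 to 4.10 and 4.60 TPM, a decrease of 0.96 ± 0.15 (adjusted p = 0.000608). In experiment 4 it went from 74.2 and 75.1 TPM to 31.2 and 28.5 TPM at 60 min, a decrease of 1.30 ± 0.31 (adjusted p = 0.00347) that was not called when any 1 of the 4 libraries was left out (-1.23 to -1.36). Between 1 and 4 hr Tlr9 rose again, by 0.38 in experiment 1 (limma, adjusted p = 0.03) and by 1.14 in experiment 2. The 4 hr control libraries of experiment 3 held 30.6 and 78.8 TPM around resting values of 62.1 and 56.0 TPM, so no direction was seen there. Tlr7 was not called in any stimulus comparison. At 4 hr its control libraries held 245 TPM in experiment 1, 150 and 124 in experiment 2, and 321 and 258 in experiment 3. The authors' deposited tables list its 4 hr changes from rest as 1.05, 0.13 and 1.02 in these experiments.

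Tlr4 and Ly96 form the signalling core of the LPS receptor. Tlr4 stood at 40.3 and 36.4 TPM at rest in experiment 1 and at 19.9 and 19.9 TPM at 1 hr, a decrease of 0.91 ± 0.11 (limma, adjusted p = 5.53e-05). In experiment 4 it went from 47.5 and 35.4 TPM to 18.4 and 17.9 TPM at 60 min, a decrease of 1.13 ± 0.15 (adjusted p = 3.52e-05). In experiment 2 it was not called at 1 hr and fell by 1.17 ± 0.13 at 4 hr (adjusted p = 1.30e-05), from 36.7 and 39.0 to 17.5 and 15.2 TPM. At 4 hr it was not called in experiment 1 (21.4 TPM) or in experiment 3 (41.0 and 29.0 to 15.9 and 26.1 TPM). For 4 hr against rest the authors' deposited tables list Tlr4 at 0.19, -0.46 and 0.12 in experiments 1, 2 and 3. Stimulated libraries were below resting ones each time. Ly96 was not called at 1 hr in any experiment and rose by 1.65 ± 0.18 at 4 hr in experiment 1 (45.1 and 32.4 to 122 TPM, limma, adjusted p = 1.07e-05) and by 0.89 ± 0.20 in experiment 3 (51.4 and 49.4 to 115 and 76.9 TPM, adjusted p = 0.002). In experiment 2, Ly96 went from 36.8 and 39.8 TPM to 59.1 and 42.4 TPM at 4 hr and was not called. The authors' deposited table lists that change as 1.17.

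**Figure D1:**
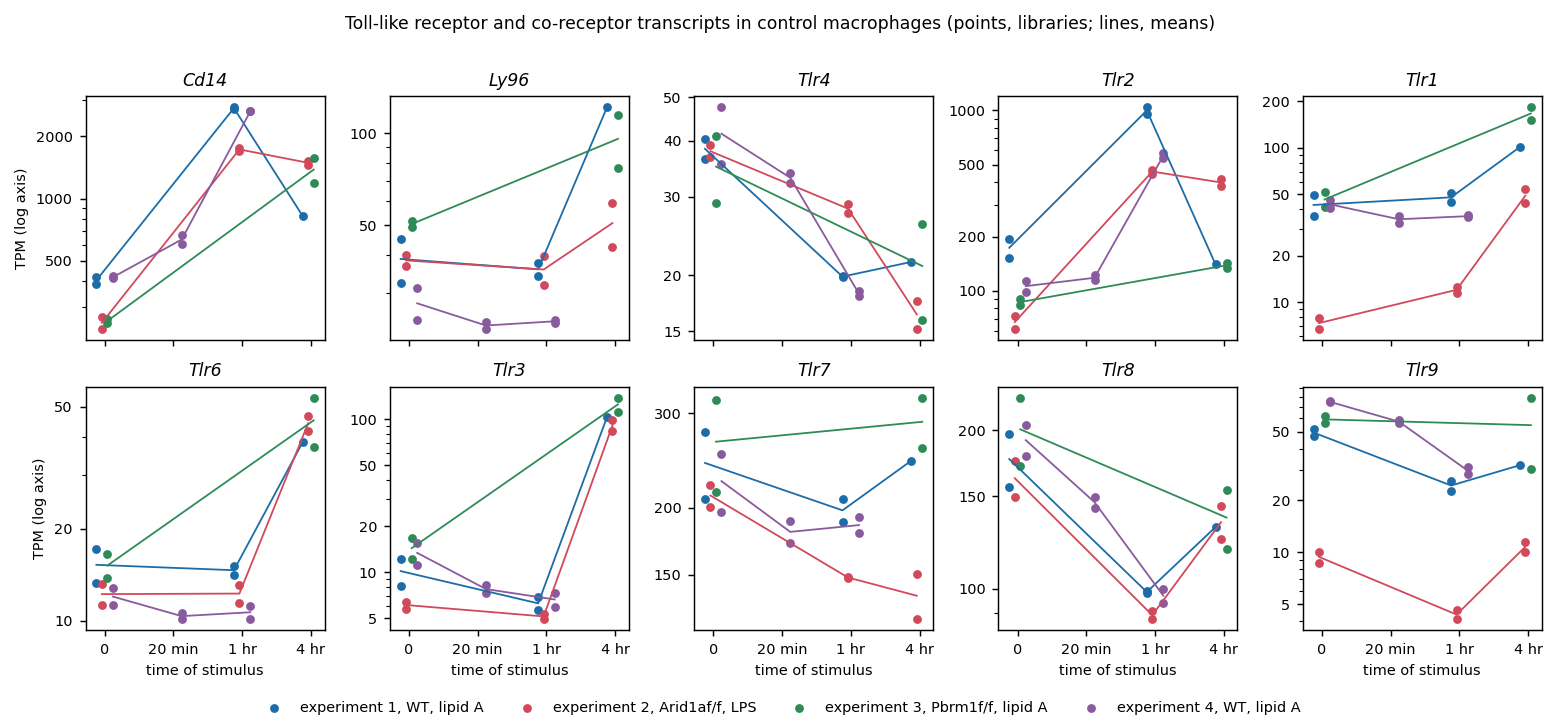
TPM (log axis) of the 10 genes in control cells at 0, 20 min, 1 hr and 4 hr of lipid A or LPS, with 1 panel per gene. Points are libraries, lines join group means and colours are the 4 experiments. Cd14 and Tlr2 sit high at 1 hr, reaching 2764 and 1038 TPM in experiment 1, and Tlr3 rises only by 4 hr.

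Counted over the 10 genes, 2 rose and 3 fell at 1 hr in experiment 1, where 29.1% of all 11531 tested genes were called, 9.90% higher and 19.2% lower. At 4 hr 5 rose and 0 fell in a background of 57.5% called, 20.1% higher and 37.4% lower. From 1 to 4 hr 6 rose and 2 fell (57.6% called, 22.7% higher and 34.9% lower). In experiment 2, 3 rose and 2 fell at 1 hr (33.8% called, 13.6% higher and 20.2% lower) and 5 rose and 1 fell at 4 hr (53.4% called, 17.9% higher and 35.5% lower). From 1 to 4 hr 5 rose and 0 fell there (50.1% called, 17.7% higher and 32.4% lower). In experiment 3, 6 rose and 0 fell at 4 hr (46.6% called, 16.0% higher and 30.6% lower). In experiment 4, 0 were called by limma at 20 min (1.08% called; 5 genes had an unadjusted p under 0.05, and voom on recovered reads called 0), and 2 rose and 4 fell at 60 min (25.5% called, 7.47% higher and 18.1% lower). From 20 to 60 min 2 rose and 1 fell (23.3% called, 7.34% higher and 15.9% lower). The median log2 change of the 10 at 4 hr was 0.53 in experiment 1, 1.08 in experiment 2 and 0.78 in experiment 3, beside medians of -0.84, -0.63 and -0.75 over all tested genes. Median-ratio scaling moved the all-gene median at 4 hr in experiment 1 from -0.84 to -0.06. Under it the direction of Tlr2 and Tlr8 at 4 hr in experiment 1 (-0.29 and -0.42 as deposited) turned to 0.69 and 0.56, and neither gene was called.

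Other genes of the pathway came from lists of adaptors and proximal kinases (23 of 24 tested), of trafficking, chaperone and accessory receptor genes (21 to 23 of 25 tested), and of 8 genes that Tlr4 signalling induces. At 4 hr of lipid A in experiment 1, 9 adaptors and kinases rose and 5 fell, 4 trafficking genes rose and 6 fell, and all 8 induced genes rose. Of all tested genes, 20.1% were called higher and 37.4% lower there. Peli1, a ubiquitin ligase of Irak proteins, went from 23.2 to 218 TPM in the mean (log2 change 3.18, limma, adjusted p = 7.36e-09), and the kinase Irak1 fell by 1.88, from 47.5 to 12.1 TPM. Cnpy3, a chaperone that folds Toll-like receptors, fell by 2.97, from 112 to 13.4 TPM (limma, adjusted p = 2.62e-08). Tlr13, an endosomal sensor of bacterial ribosomal RNA, fell by 2.82, from 132 to 17.7 TPM (limma, adjusted p = 8.62e-08). At 4 hr in experiments 2 and 3, 9 and 7 adaptors and kinases rose and 5 and 2 fell, 2 and 1 trafficking genes rose and 8 and 7 fell, and all 8 induced genes rose in both. Of all tested genes, 17.9% and 16.0% were called higher and 35.5% and 30.6% lower in these experiments.

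At 4 hr of lipid A, all 3 compounds left several receptors lower than the control, with the largest decreases under BRM014 in Tlr8, Tlr9 and Tlr6, while Tlr2 and Cd14 were higher under ACBI1 and BRM014. These comparisons share the single control library, whose values are therefore in each of them. With BRM014, 2 of the 10 rose and 6 fell (42.8% of tested genes called, 26.4% higher and 16.4% lower). With ACBI1, 2 rose and 4 fell (33.4% called, 20.0% higher and 13.5% lower). With BRDK98, 0 rose and 5 fell (34.5% called, 22.0% higher and 12.4% lower). The median change of the 10 was -0.80, -0.13 and -0.34, beside 0.44, 0.25 and 0.46 over all tested genes.

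Tlr2 stood at 140.1 TPM in the control, at 1050.3 and 1056 TPM with ACBI1, at 1404 and 1426 TPM with BRM014 and at 251 and 262 TPM with BRDK98. The ACBI1 and BRM014 libraries were near or above the 1 hr control level of 959 to 1038 TPM. The log2 differences from the control were 2.90 ± 0.13 for ACBI1 (limma, adjusted p = 7.60e-07, 7.52-fold) and 3.33 ± 0.13 for BRM014 (adjusted p = 4.19e-08, 10.1-fold). For BRDK98, 0.87 passed as deposited (limma, adjusted p = 0.000277) but was 0.22 after scaling (adjusted p = 0.156) and was not called. Cd14 stood at 825 TPM in the control, 1649 and 1784 TPM with ACBI1, 1807 and 1762 TPM with BRM014 and 679.8 and 740.1 TPM with BRDK98. It was higher by 1.06 ± 0.10 with ACBI1 and 1.11 ± 0.10 with BRM014 (limma, adjusted p = 2.95e-05 and 7.72e-06), or 2.08- and 2.16-fold.

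Tlr8 was the receptor that BRM014 lowered most. It stood at 131 TPM in the control, 59.0 and 49.9 TPM with ACBI1, 6.61 and 6.23 TPM with BRM014 and 95.1 and 95.4 TPM with BRDK98. The groups did not overlap. Tlr8 fell by 4.15 ± 0.14 with BRM014 (limma, adjusted p = 1.79e-08), a 20.4-fold difference, by 1.26 ± 0.14 with ACBI1 (adjusted p = 8.09e-05) and by 0.46 ± 0.14 with BRDK98 (adjusted p = 0.0169). The BRDK98 call was lost when either of its libraries was left out (-0.45 and -0.46). Tlr9 stood at 32.0 TPM in the control, 24.4 and 27.2 TPM with ACBI1, 2.34 and 2.0 TPM with BRM014 and 6.39 and 7.05 TPM with BRDK98. It fell by 3.38 ± 0.14 with BRM014 (limma, adjusted p = 4.99e-08, 14.8-fold) and by 2.10 ± 0.14 with BRDK98 (adjusted p = 2.02e-06, 4.77-fold), while the -0.31 with ACBI1 was not called (adjusted p = 0.093). Tlr7, whose gene neighbours Tlr8, stood at 245 TPM in the control and 139 and 137 TPM with BRM014, a decrease of 0.83 ± 0.16 (limma, adjusted p = 0.00112). With BRDK98 it stood at 401 and 378 TPM, a difference of 0.67 that vanished on scaling (0.02).

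Tlr1 and Tlr6 are the partners of Tlr2. Tlr6 stood at 38.3 TPM in the control, 24.3 and 22.6 TPM with ACBI1, 4.16 and 4.97 TPM with BRM014 and 20.7 and 21.2 TPM with BRDK98. It fell by 2.83 ± 0.16 with BRM014 (limma, adjusted p = 3.79e-07), by 0.69 ± 0.16 with ACBI1 (adjusted p = 0.00483) and by 0.84 ± 0.16 with BRDK98 (adjusted p = 0.000962). Its partner gene Tlr1 stood at 101 TPM in the control, 154 and 132 TPM with ACBI1, 26.5 and 26.9 TPM with BRM014 and 26.5 and 25.4 TPM with BRDK98. It fell by 1.89 ± 0.17 with BRM014 and by 1.93 ± 0.17 with BRDK98 (limma, adjusted p = 7.89e-06 and 1.07e-05), and the 0.49 with ACBI1 was not called after scaling (adjusted p = 0.537).

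Tlr3 was not called with any compound at 4 hr. It stood at 103 TPM in the control, 131 and 116 TPM with ACBI1, 113 and 137 TPM with BRM014 and 225 and 214 TPM with BRDK98, the last difference being 1.09 as deposited (limma, adjusted p = 0.00149) and 0.44 after scaling (adjusted p = 0.0767). Ly96 fell with all 3 compounds, from 122 TPM to between 62.4 and 75.02 TPM, by 0.82, 0.78 and 0.75 (limma, adjusted p = 0.00388, 0.00338 and 0.00468). Tlr4 fell with ACBI1 by 0.66 ± 0.13 (21.4 TPM to 13.7 and 12.6 TPM, limma, adjusted p = 0.00216). It was not called with BRM014, at -0.19 as deposited (limma, adjusted p = 0.219) and -0.75 after scaling (adjusted p = 0.000619), or with BRDK98, at -0.16 (adjusted p = 0.321) and -0.78 (adjusted p = 0.000624). Its difference between BRM014 and ACBI1, 0.47 as deposited and 0.27 after scaling, was not called either (limma, adjusted p = 0.00545 and 0.0705). Granulocyte markers summed to 18.1 TPM in the control, 32.6 to 41.7 TPM with BRM014 and 4.57 to 5.36 TPM with BRDK98. Their part in these results was not tested.

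**Figure D2:**
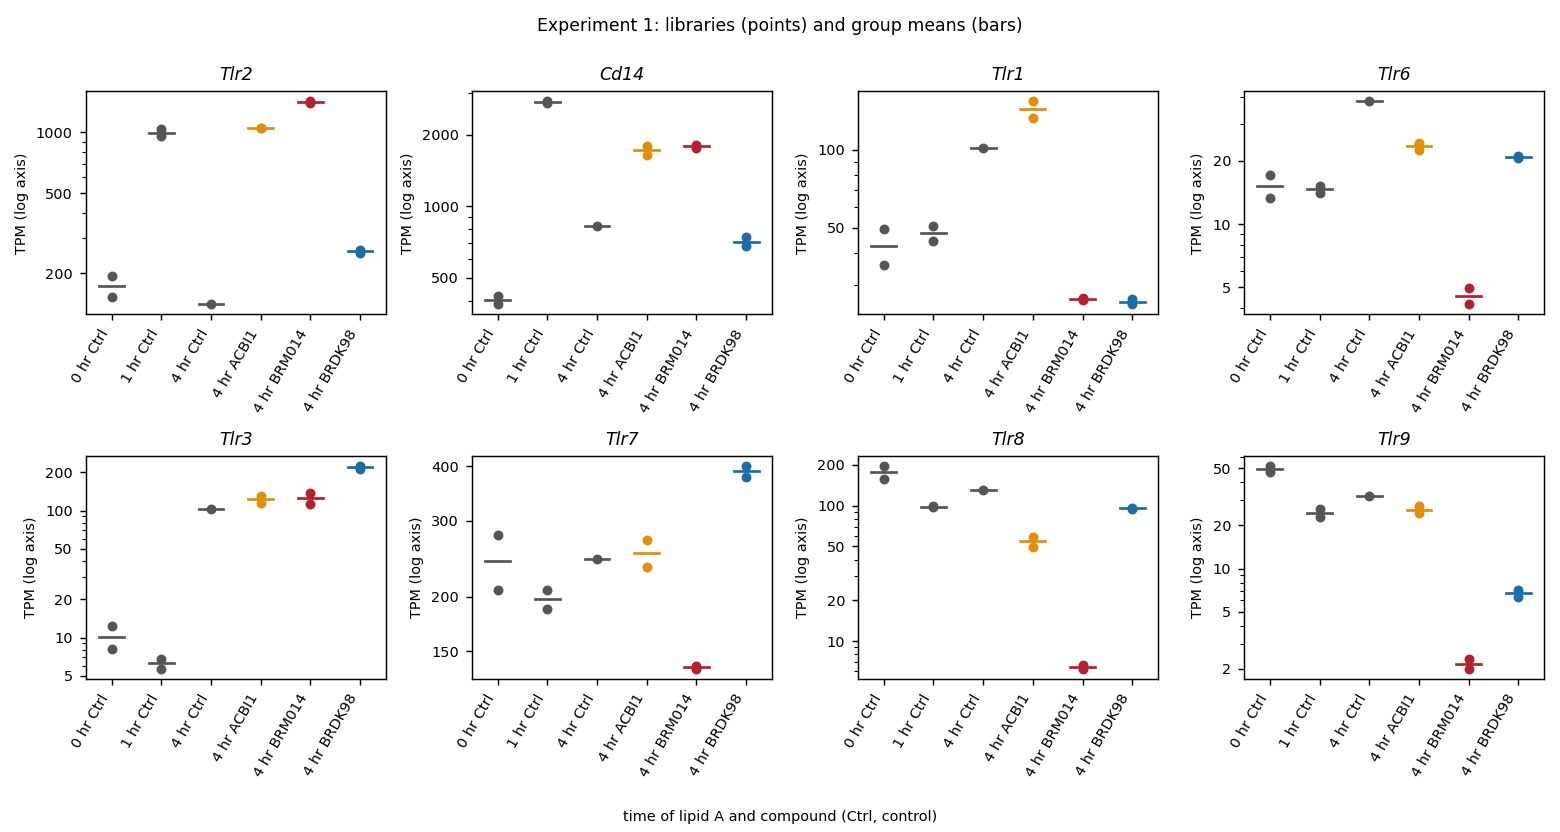
TPM (log axis) of 8 of the 10 genes in experiment 1 in controls at 0, 1 and 4 hr of lipid A and at 4 hr with ACBI1, BRM014 or BRDK98. Points are libraries and horizontal lines are group means; the 4 hr control has 1 library. Tlr2 sits above 1000 TPM with ACBI1 and BRM014 and at 140.1 TPM in the control, while Tlr8 and Tlr9 are lowest with BRM014, at 6.23 to 6.61 and 2.0 to 2.34 TPM.

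In the signalling lists at 4 hr, 3 adaptors and kinases rose and 8 fell with ACBI1, 4 rose and 7 fell with BRM014, and 4 rose and 5 fell with BRDK98. Of all tested genes, 20.0% were called higher and 13.5% lower with ACBI1. The shares were 26.4% and 16.4% with BRM014, and 22.0% and 12.4% with BRDK98. Irak3 (IRAK-M), an inhibitor of receptor signalling, went from 75.9 TPM in the control to means of 33.3 TPM with ACBI1, 16.7 TPM with BRM014 and 6.08 TPM with BRDK98. It fell by 1.17, 2.13 and 3.44 (limma, adjusted p = 0.000124, 1.17e-06 and 9.08e-08). Ticam1, the adaptor of Tlr3 and Tlr4, rose by 1.02 with ACBI1 and by 1.38 with BRM014 (limma, adjusted p = 0.000165 and 1.07e-05). Among the trafficking and accessory genes 2 rose and 6 fell, 3 rose and 5 fell, and 2 rose and 5 fell. Clec7a (Dectin-1), a fungal glucan receptor that works with Tlr2, went from 42.0 to 290.5 TPM with BRM014 (log2 change 2.76, limma, adjusted p = 1.03e-05). Of the 8 induced genes 3 rose and 2 fell with ACBI1, 2 rose and 4 fell with BRM014 and 1 rose and 3 fell with BRDK98: Tnf, for example, went from 968 to 3136 TPM with ACBI1 and Il12b from 114 to 8.99 TPM with BRM014.

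At 60 min the picture differed by compound: BRM014 left 8 of the 10 genes lower and BRDK98 3, whereas ACBI1 left Tlr2 and Cd14 near the control and 4 other receptors higher. The background was 30.2% called with BRM014 (16.8% higher and 13.4% lower), 11.6% with BRDK98 (6.05% higher and 5.53% lower) and 25.2% with ACBI1 (11.6% higher and 13.7% lower). The median change of the 10 was -0.92, -0.38 and 0.26, beside 0.04, 0.08 and -0.14 over all tested genes. The 3 comparisons share the same 2 control libraries.

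Tlr2 stood at 543 and 578 TPM in the 60 min control, at 488 and 487 TPM with ACBI1, at 75.7 and 63.1 TPM with BRM014 and at 160.4 and 166 TPM with BRDK98. The BRM014 libraries lay below the resting level of 98.8 to 114 TPM. Tlr2 fell by 3.0 ± 0.09 with BRM014 (limma, adjusted p = 3.20e-11, 8.07-fold) and by 1.77 ± 0.09 with BRDK98 (adjusted p = 5.20e-09, 3.44-fold). The difference with ACBI1 was -0.20 (95% interval -0.39 to -0.01) and was not called. Cd14 stood at 2661 and 2644 TPM in the control, 2374 and 2428 TPM with ACBI1, 1526 and 1047 TPM with BRM014 and 1325 and 1312 TPM with BRDK98. It fell by 1.07 ± 0.12 with BRM014 and by 1.01 ± 0.12 with BRDK98 (limma, adjusted p = 1.48e-05 and 4.37e-05), to levels still above the resting 413 to 421 TPM.

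With BRM014, Tlr2 was thus 8.07-fold lower than its control at 60 min in experiment 4 and 10.1-fold higher at 4 hr in experiment 1. Its level in BRM014 cells was 63.1 to 75.7 TPM at 60 min and 1404 to 1426 TPM at 4 hr. In control cells the order was reversed, with 543 to 578 TPM at 60 min and 140.1 TPM at 4 hr. The 60 min and 4 hr compound libraries belong to different experiments, so this contrast was not tested.

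Tlr6 fell by 1.12 ± 0.09 with BRM014 at 60 min (limma, adjusted p = 2.85e-07), from 11.2 and 10.1 TPM to 4.39 and 4.36 TPM. Tlr1 fell by 0.88 ± 0.10 with BRM014 (36.5 and 35.6 TPM to 17.2 and 21.3 TPM, adjusted p = 1.04e-05) and by 0.56 ± 0.10 with BRDK98 (23.0 and 25.4 TPM, adjusted p = 0.00113), but rose by 0.56 ± 0.10 with ACBI1 (54.9 and 52.5 TPM, adjusted p = 0.000518). Those 3 compound groups did not overlap the control for Tlr1. Tlr4 stood at 18.4 and 17.9 TPM in the control and at 6.54 and 10.03 TPM with BRM014, a decrease of 1.07 ± 0.15 (limma, adjusted p = 0.000117).

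The remaining BRM014 calls at 60 min rested on 2 libraries that differed widely. Tlr7 stood at 75.8 and 124 TPM against 192 and 179 TPM in the control, Tlr8 at 47.8 and 79.5 TPM against 99.8 and 94.1 TPM, and Tlr9 at 9.07 and 25.7 TPM against 31.2 and 28.5 TPM. In each, the first BRM014 library was the lower of the pair, and neither overlapped the control. They fell by 0.93 ± 0.18, 0.64 ± 0.16 and 0.91 ± 0.31 (limma, adjusted p = 0.00145, 0.00825 and 0.0398). Without the first BRM014 library the differences were -0.58, -0.28 and -0.20, and Tlr9 was no longer called. Without the second they were -1.28, -1.01 and -1.61, and Tlr3 was also called (-0.69, against -0.42 with both). Without the first control library Tlr8 (-0.60) and Tlr9 (-0.85) were not called, nor was Tlr9 without the second (-0.97).

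ACBI1 at 60 min raised Tlr3 most. It stood at 27.6 and 26.3 TPM with ACBI1, against 7.30 and 5.96 TPM in the control, 3.72 and 5.86 TPM with BRM014 and 4.56 and 5.70 TPM with BRDK98. The ACBI1 libraries also lay above the resting 11.2 to 15.6 TPM. Tlr3 rose by 1.88 ± 0.19 (limma, adjusted p = 6.81e-06, 4.06-fold). Tlr9 stood at 65.8 and 69.8 TPM with ACBI1 against 31.2 and 28.5 TPM, a rise of 1.16 ± 0.31 (adjusted p = 0.0111) that was not called without the second ACBI1 library (1.12) or the second control library (1.10). Tlr4 rose by 0.41 ± 0.15 (24.6 and 24.5 TPM, limma, adjusted p = 0.0451), a call lost when any 1 of the 4 libraries was left out (0.40 to 0.43). In the same libraries the dendritic cell list summed to 1118 and 1231 TPM with ACBI1 and 596 and 452 TPM in the control. Only 3 of its 8 markers reached 1 TPM. Bst2 leads the list, and its highest value in experiment 4 was 1190 TPM, so that the largest sum is nearly all Bst2. The granulocyte list summed to 231.9 and 245 TPM against 368 and 385 TPM. Their part in the result was not tested.

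At 20 min, limma called 0 of the 10 genes with any compound, in a background of 0.147% with ACBI1, 0.390% with BRM014 and 1.33% with BRDK98. By unadjusted p under 0.05 there were 2, 2 and 4 of the 10, and voom on recovered reads called 0 with each. Tlr2 stood at 122 and 114 TPM in the control, 149 and 144 TPM with ACBI1, 106 and 101 TPM with BRM014 and 94.8 and 89.7 TPM with BRDK98. These groups did not overlap the control, with differences of 0.31, -0.19 and -0.35 (limma, adjusted p = 0.409, 0.545 and 0.0672). The effect of BRM014 on Tlr2 changed by -2.81 from 20 to 60 min and that of BRDK98 by -1.42 (limma interaction, adjusted p = 5.91e-09 and 3.35e-06). The effect of ACBI1 on Tlr3 changed by 2.22 (adjusted p = 8.10e-05). In all, 5 genes were called in this test with ACBI1 (18.5% of tested genes), 6 with BRM014 (13.3%) and 1 with BRDK98 (6.66%).

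**Figure D3:**
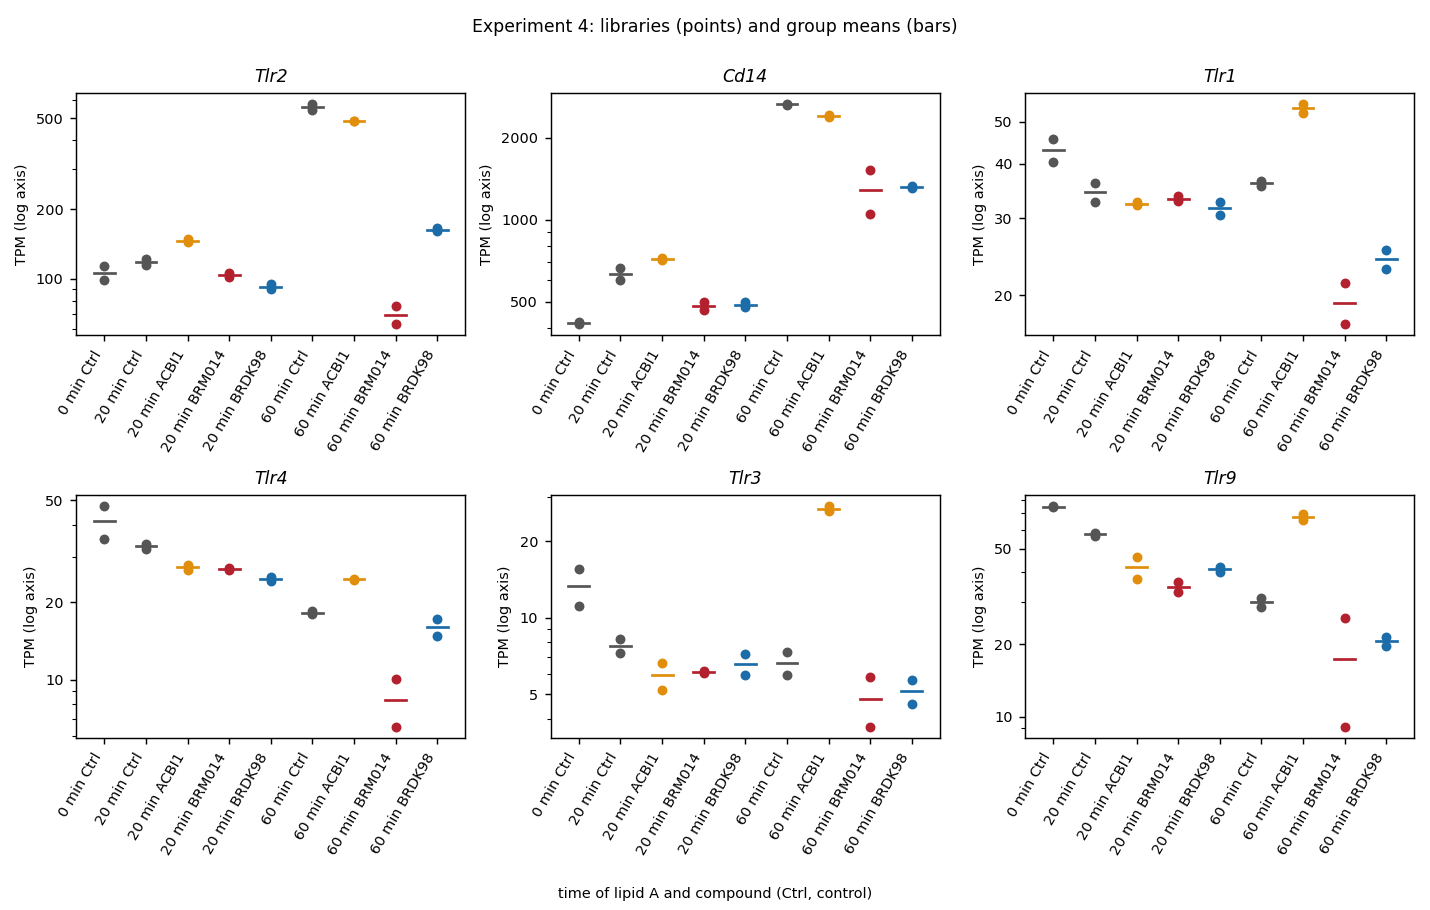
TPM (log axis) of 6 of the 10 genes in experiment 4 at 0, 20 and 60 min of lipid A in controls and with ACBI1, BRM014 or BRDK98. Points are libraries and horizontal lines are group means. At 20 min the groups lie close together, and at 60 min Tlr2 is at 63.1 to 75.7 TPM with BRM014 against 543 and 578 TPM in the control, while Tlr3 is highest with ACBI1.

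In the signalling lists at 60 min, 0 adaptors and kinases rose and 9 fell with BRM014, 3 rose and 2 fell with BRDK98 and 1 rose and 2 fell with ACBI1. Of all tested genes, 16.8% were called higher and 13.4% lower with BRM014. The shares were 6.05% and 5.53% with BRDK98, and 11.6% and 13.7% with ACBI1. Ticam1 fell by 2.27 with BRM014, from a mean of 45.3 to 8.61 TPM (limma, adjusted p = 1.90e-09). The kinase Irak2 fell by 2.05 with BRM014 and by 1.60 with BRDK98, from 75.5 TPM to 17.5 and 24.3 TPM (limma, adjusted p = 2.76e-10 and 3.59e-09). The adaptor Myd88 rose by 0.73 with ACBI1 and by 0.84 with BRDK98, from 130.2 TPM to 216 and 233 TPM (limma, adjusted p = 7.96e-06 and 2.24e-06). Of the trafficking and accessory genes 5 rose and 4 fell with ACBI1, among them Cd180, a relative of Tlr4 that pairs with Ly86, at 190.3 against 95.02 TPM, and Ly86 itself at 769 against 501 TPM. With BRM014 1 rose and 6 fell, including Tlr13, which fell by 1.32. Of the 8 induced genes 1 rose and 7 fell with BRM014, 0 rose and 7 fell with BRDK98, and 3 rose and 2 fell with ACBI1.

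Compared with each other in 9 pairings (3 pairs of compounds at each of 3 times), the compounds differed in called genes mainly at 60 min and 4 hr. The labels give no doses, so equal times do not mean matched doses. At 4 hr BRM014 against ACBI1 left 5 genes lower and 0 higher (30.4% of tested genes called, 16.2% higher and 14.1% lower): Tlr9 fell by 3.08, Tlr8 by 2.90, Tlr1 by 2.38, Tlr6 by 2.14 and Tlr7 by 0.87 between them (limma; the p of Tlr9 adjusted over pairs was 2.16e-08). The differences of Cd14 (0.06, 95% interval -0.12 to 0.24), Tlr3 (0.01, -0.37 to 0.40) and Ly96 (0.05, -0.28 to 0.37) were not called. Tlr2 was higher by 0.43 with BRM014 (0.19 to 0.67) but not after scaling (limma, adjusted p = 0.131).

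BRDK98 against BRM014 at 4 hr left 5 genes higher and 2 lower (45.2% called, 23.2% higher and 22.1% lower). Tlr8 was 3.70 higher on the log2 scale, or 14.8-fold, Tlr6 1.98, Tlr7 1.49, Tlr9 1.29 and Tlr3 0.82, whereas Tlr2 fell by 2.46 and Cd14 by 1.33. Tlr1, lowered by both, differed by -0.04 between them (95% interval -0.35 to 0.27). BRDK98 against ACBI1 left 3 higher and 4 lower (36.5% called, 21.2% higher and 15.4% lower), with Tlr1 (-2.42), Tlr2 (-2.03) and Tlr9 (-1.79) the largest differences. Ly96 was not called in any 4 hr pairing, with 0.08 between BRDK98 and ACBI1 (95% interval -0.25 to 0.41) and 0.03 between BRDK98 and BRM014 (-0.29 to 0.36).

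At 60 min, 9 of the 10 genes were lower with BRM014 than with ACBI1 and 9 lower with BRDK98 than with ACBI1 (47.8% of tested genes called in the first, 28.2% higher and 19.6% lower, and 35.0% in the second, 20.7% higher and 14.3% lower). Tlr2 (-2.80 and -1.58), Tlr3 (-2.30 and -2.19) and Tlr9 (-2.07 and -1.67) differed most. Ly96 was the exception in both, with -0.21 (95% interval -0.48 to 0.05) between BRM014 and ACBI1. Between BRDK98 and BRM014, 4 were higher with BRDK98 (26.8% called, 14.4% higher and 12.3% lower): Tlr2 by 1.23, Tlr6 by 1.05, Tlr4 by 0.90 and Tlr1 by 0.32. Cd14 did not separate those compounds (0.06, 95% interval -0.20 to 0.32), although both had lowered it. At 20 min Tlr2 alone was called, with a difference of -0.66 between BRDK98 and ACBI1 (limma, p adjusted over pairs = 6.38e-05). There 1.58% of tested genes were called. The other 20 min pairings held 0 called members (0.346% for BRM014 against ACBI1 and 0.944% for BRDK98 against BRM014), with 2 and 0 at an unadjusted p under 0.05 in limma.

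Loss of Arid1a lowered 7 of the 10 genes at 1 hr of LPS and 6 at 4 hr, and raised 0 at either time. The background was 35.5% called at 1 hr (18.7% higher and 16.8% lower) and 24.8% at 4 hr (13.9% higher and 10.8% lower). Arid1a itself stood at 7.17 and 13.2 TPM in Arid1a-/- cells and 18.3 and 17.3 TPM in Arid1af/f cells at 1 hr, a decrease of 0.80 (limma, adjusted p = 0.0165). At 4 hr it stood at 25.4 and 26.1 TPM against 35.2 and 41.9 TPM, a difference of -0.56 that was not called (adjusted p = 0.0838). The value covers all exons of the transcript model, and the labels do not give the deleted exons. The median change of the 10 was -0.93 at 1 hr and -0.45 at 4 hr, beside 0.03 and 0.05 over all tested genes.

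Tlr9 was lowered most at 1 hr. It stood at 0.147 and 0.492 TPM in Arid1a-/- cells, from 4 and 15 reads, and at 4.10 and 4.60 TPM in controls, from 124 and 153 reads. The means differed 13.6-fold, and Tlr9 fell by 2.03 ± 0.15 on the log2(TPM + 1) scale (limma, adjusted p = 9.28e-06). At 4 hr it stood at 6.90 and 6.24 TPM against 10.1 and 11.5 TPM, a decrease of 0.64 ± 0.15 (adjusted p = 0.0107). The effect was smaller at 4 hr than at 1 hr by 1.39 (limma interaction, adjusted p = 0.00219). Such a difference was called in 3 of the 10 genes, each higher at 4 hr, in a background of 15.9% (7.79% higher and 8.10% lower). Without the second knockout (-0.57) or the second control library (-0.55) the 4 hr call was lost.

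Tlr7 and Tlr8 moved with Tlr9 at 1 hr. Tlr8 stood at 30.6 and 44.9 TPM in knockout cells and 90.5 and 87.5 TPM in controls, a decrease of 1.24 ± 0.16 (limma, adjusted p = 0.000307). Tlr7 stood at 58.8 and 80.8 TPM against 149 and 148 TPM, a decrease of 1.09 ± 0.14 (adjusted p = 0.000258). Neither overlapped the control. At 4 hr Tlr8 stood at 94.1 and 86.4 TPM against 143 and 124 TPM (a decrease of 0.56 ± 0.16, limma, adjusted p = 0.0277, lost when any 1 of the 4 libraries was left out, -0.46 to -0.66). Tlr7 stood at 107 and 97.5 TPM against 150.1 and 124 TPM and was not called (-0.41, adjusted p = 0.055), and its effect differed between the times by 0.68 (limma interaction, adjusted p = 0.0463). Tlr3, the remaining endosomal receptor, was not called at either time, with 0.20 at 1 hr (95% interval -0.07 to 0.47) and 0.43 at 4 hr (limma, adjusted p = 0.024 as deposited and 0.052 scaled). Without the first 4 hr control library the Tlr3 difference of 0.55 was called. Unc93b1, the chaperone that carries these receptors to endosomes, fell by 0.73 at 1 hr, from 293 to 177 TPM, and by 0.51 at 4 hr, from 326 to 228.5 TPM (limma, adjusted p = 0.000506 and 0.00574).

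Tlr2 and Cd14, the early risers, were lower at 1 hr in Arid1a-/- cells. Tlr2 stood at 228 and 213 TPM against 470.0 and 447 TPM, a decrease of 1.05 ± 0.09 (limma, adjusted p = 2.47e-05). At 4 hr it stood at 386 and 359 TPM against 416 and 381 TPM, ranges that overlapped, with a difference of -0.10 (95% interval -0.31 to 0.11). The effect was 0.96 smaller at 4 hr (limma interaction, adjusted p = 0.00141). Cd14 stood at 1022 and 889 TPM against 1766 and 1696 TPM at 1 hr and at 1037 and 1106 TPM against 1522 and 1460 TPM at 4 hr. It fell by 0.86 ± 0.09 and by 0.48 ± 0.09 (limma, adjusted p = 6.29e-05 and 0.00325).

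Of the Tlr2 partners, Tlr1 stood at 4.32 and 7.03 TPM against 11.4 and 12.6 TPM at 1 hr, a decrease of 0.99 ± 0.19 (limma, adjusted p = 0.00212). Tlr6 stood at 7.32 and 8.65 TPM against 13.1 and 11.5 TPM, a decrease of 0.57 ± 0.14 (adjusted p = 0.00776) that was lost without the first control library (-0.48). At 4 hr Tlr1 (-0.55, adjusted p = 0.0496) and Tlr6 (-0.41, adjusted p = 0.0434) were called by limma only narrowly. Tlr1 was lost when any 1 of the 4 libraries was left out (-0.40 to -0.70), and Tlr6 without the second knockout (-0.28), the first control (-0.33) or the second control library (-0.50).

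In the LPS complex, Tlr4 stood at 25.7 and 34.4 TPM in knockout cells and 28.9 and 27.5 TPM in controls at 1 hr, and was not called (0.07, 95% interval -0.22 to 0.37). Ly96 stood at 28.2 and 21.4 TPM against 39.7 and 31.8 TPM at 1 hr (-0.51, limma, adjusted p = 0.101) and at 22.2 and 32.0 TPM against 59.1 and 42.4 TPM at 4 hr. It fell by 0.89 ± 0.22 at 4 hr (adjusted p = 0.0184), a call lost without the first knockout (-0.63) or the first control library (-0.65). At 1 hr the macrophage markers summed to 14946 and 14987 TPM in knockout cells against 19264 and 19098 TPM. The granulocyte list, with 3 of 8 markers at 1 TPM and Ly6g at 0, summed to 37.6 and 31.2 TPM against 22.3 and 22.7 TPM. At 4 hr the stromal list, led by Kdr with Col3a1 at 0, summed to 63.9 and 57.3 TPM against 31.4 and 31.2 TPM. Their part in the results was not tested.

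**Figure D4:**
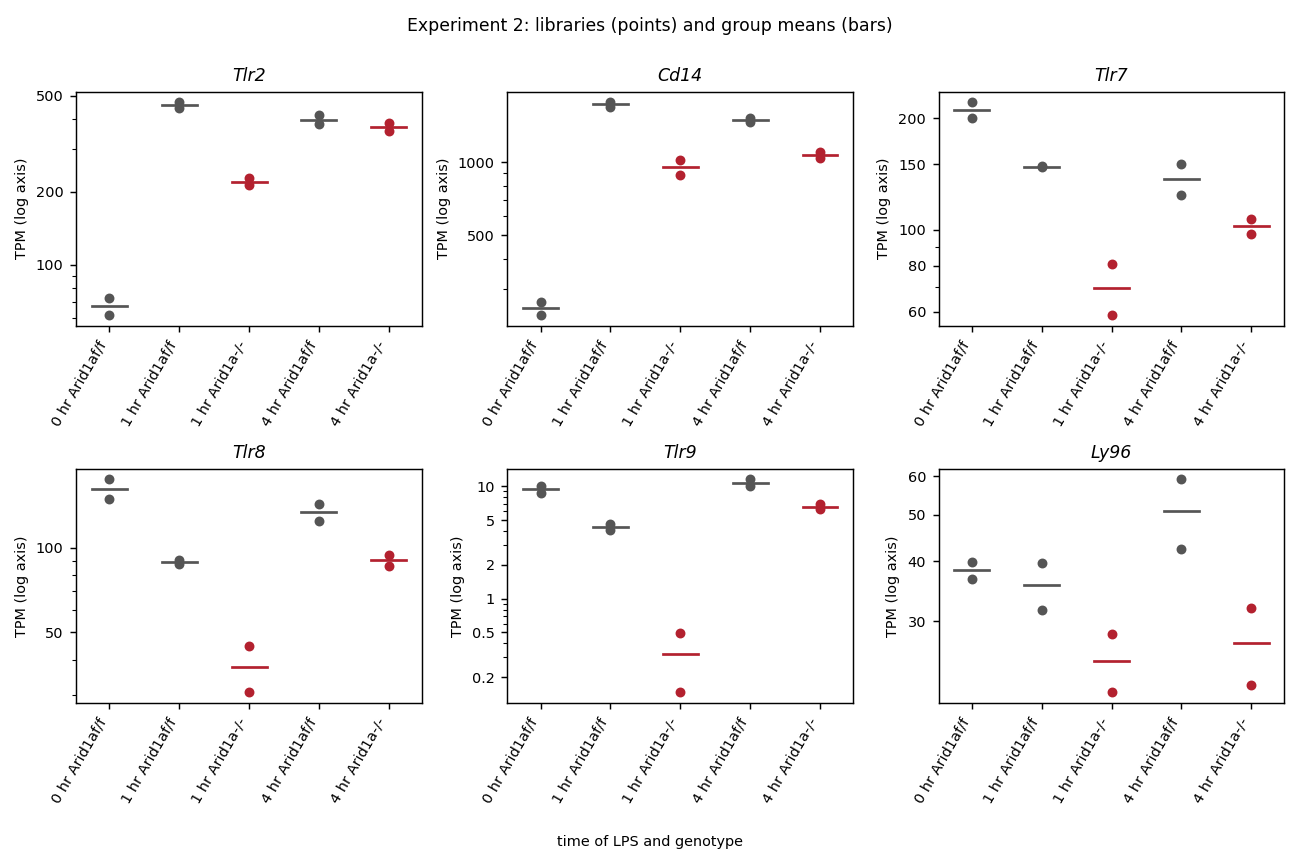
TPM (log axis) of Tlr2, Cd14, Tlr7, Tlr8, Tlr9 and Ly96 in experiment 2 in Arid1af/f controls (0, 1 and 4 hr with LPS) and Arid1a-/- cells (1 and 4 hr). Points are libraries and horizontal lines are group means. Tlr9 is lowest in Arid1a-/- cells at 1 hr, at 0.147 and 0.492 TPM, and Tlr2 in those cells is low at 1 hr and level with the control at 4 hr.

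Of the adaptors and kinases 0 rose and 8 fell at 1 hr in Arid1a-/- cells, and 1 rose and 3 fell at 4 hr. Of all tested genes, 18.7% were called higher and 16.8% lower at 1 hr. The shares were 13.9% and 10.8% at 4 hr. Peli1 fell by 1.65 at 1 hr, from 73.2 to 22.6 TPM (limma, adjusted p = 1.34e-06), and rose by 0.55 at 4 hr, from 161 to 236 TPM (adjusted p = 0.000767). Ticam2 (TRAM), which links Tlr4 to Ticam1, fell by 1.63 at 1 hr, from 20.5 to 5.94 TPM (limma, adjusted p = 2.39e-06). Of the trafficking and accessory genes 4 rose and 7 fell at 1 hr, with Ly86 falling by 1.04 and Clec7a by 1.28, and 6 rose and 6 fell at 4 hr. Of the 8 induced genes 3 fell at 1 hr, Il12b by 3.24 and Ccl5 by 2.20, and 3 rose at 4 hr, including Ifnb1, from 4.63 to 46.3 TPM (log2 change 3.09, limma, adjusted p = 7.02e-06).

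Loss of Pbrm1 changed none of the 10 genes in a call at 4 hr of lipid A. Pbrm1 itself stood at 4.54 and 5.03 TPM in Pbrm1-/- cells against 15.6 and 14.7 TPM in Pbrm1f/f cells, a difference of -1.48 that passed as deposited (limma, adjusted p = 0.0265) and not after scaling (adjusted p = 0.113). The whole table held few calls, 0.00905% of 11044 tested genes, with 3 residual degrees of freedom. For the 10 genes limma called 0, 2 had an unadjusted p under 0.05, and voom on recovered reads called 0. The median change of the 10 was -0.06, beside -0.12 over all tested genes, and 0 genes of any of the 3 pathway lists were called.

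Tlr9 stood at 18.9 and 22.9 TPM in Pbrm1-/- cells against 30.6 and 78.8 TPM in controls, a difference of -1.20 ± 0.43 (95% interval -2.27 to -0.14, limma, adjusted p = 0.468). Ly96 stood at 137 and 145 TPM against 115 and 76.9 TPM (0.58 ± 0.20, adjusted p = 0.468). Both differences rested on which control library was kept: without the first, Tlr9 (-1.87), Ly96 (0.87) and Cd14 (0.48) were called. Without the second, Tlr9 was at -0.54, Ly96 at 0.29 and Cd14 at 0.08, and 0 were called. Macrophage markers summed to 15078 TPM in the first control library and 20342 TPM in the second. Tlr2 (-0.02, 95% interval -0.37 to 0.33) and Tlr3 (0.04, -0.38 to 0.46) stood at 151 and 123 TPM and at 127 and 128 TPM in Pbrm1-/- cells, within or near the control values of 135 and 142 TPM and 138 and 112 TPM.

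**Figure D5:**
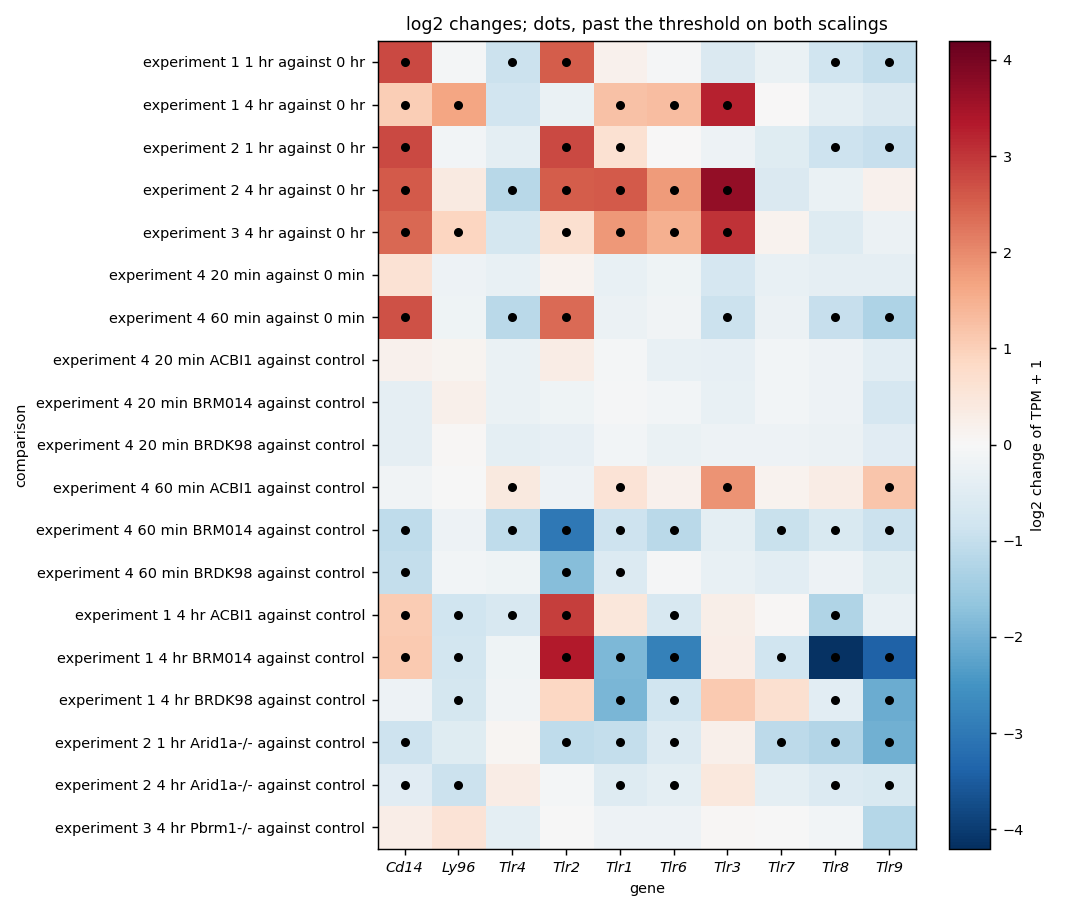
Log2 change of each of the 10 genes (horizontal axis) in the comparisons of each time with rest, each compound with its control and each knockout with its control (vertical axis), on the log2(TPM + 1) scale of TPM as deposited. Colour gives direction and size, and dots mark calls. Tlr2 with BRM014 changes from -3.0 at 60 min to 3.33 at 4 hr, and Pbrm1-/- shows no call.

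Some of the 10 genes followed each other over the 45 libraries. After the mean of each experiment was removed, Pearson's r was 0.84 between Tlr1 and Tlr6, 0.83 between Tlr8 and Tlr9, 0.82 between Tlr2 and Cd14, 0.69 between Tlr7 and Tlr8 and -0.65 between Tlr4 and Cd14. Among 7971 genes that passed the filter in all experiments at a mean of 5 TPM or more, Tlr3 was most like Setdb2 (0.99), Parp9 (0.99) and Parp12 (0.99), Cd14 like Il1b (0.96) and Il1a (0.96), Tlr9 like Abcc5 (0.92), Csf2rb (0.90) and Abcg1 (0.87), and Tlr8 like Ehd4 (0.92), Mpp1 (0.92) and Csf2rb2 (0.92). For Tlr2 the nearest were Icosl (0.86), Gpr132 (0.86) and Itga5 (0.84). These correlations describe libraries that share treatments, depth and time points, and carry no test.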

How the data were processed

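PolyA RNA was made into strand-marking libraries and read as 50 bp single ends. The submitters' processing notes list STAR 2.5.3a, HOMER and the mm10 build. The deposited TPM values were made by the authors with HOMER, per the file headers, which record counting over exons on both strands with 1 transcript kept per gene. The authors' comparison tables were deposited as log2 fold changes with adjusted p-values. They were read to count the members they list as changed and to quote some of their fold changes. In them, 46 transformed columns were not used. In experiment 1, 1 of the TPM columns matched no sample, because it repeats the first 4 hr control.

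Values were taken as log2(TPM + 1) and fitted with limma 3.58.1 (R 4.3.3; trend and robust), 1 fit per experiment over all groups, for genes at 1 TPM or more in at least 2 libraries. Between 11044 and 11798 genes were tested per experiment, with 3 to 9 residual degrees of freedom and 35 contrasts in all. P-values were adjusted by Benjamini and Hochberg within each contrast. A gene was called when the adjusted p was under 0.05 with the same sign on TPM as deposited and on TPM divided by median-ratio factors. Pairs of compounds were also adjusted over the pairs of an experiment. Whole reads were recovered from the TPM steps: 100% of low values lay within 0.1 read of a whole number. A test on those reads used limma's voom as an alternative, since no count model is a fit for the deposited unit. Intervals are 95% and cover the spread between libraries. The fit was tested on simulated data.

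Groups came from the labels. All 10 members are named. Of each pathway list up to 3 called genes in each direction are named per comparison, those with the largest log2 change at a mean of 5 TPM or more. Likeness is Pearson's r of log2(TPM + 1) centred within each experiment. Members and lists were chosen with earlier results of these data known. The contrasts of 4 hr with 1 hr and of 60 min with 20 min were added after the data were seen. Alternatives were a pseudocount of 0.1, no filter, each scaling alone, a fit of only the 2 groups compared, no trend or robust moderation, voom on recovered reads, the replicate number as a block and each library left out.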

Additional observations from a re-analysis of the deposited data

Results flagged for a closer look

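The effect of Arid1a loss differed between 1 and 4 hr of LPS, by limma's interaction term, in 3 of the 10 genes, beside 15.9% of all tested genes. The log2 effect at 4 hr minus that at 1 hr was 1.39 for Tlr9 (adjusted p = 0.00219), 0.96 for Tlr2 (0.00141) and 0.68 for Tlr7 (0.0463). In each, the knockout libraries stood farther below their controls at 1 hr.

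The effects of the compounds differed between 20 and 60 min of lipid A, by the same kind of term. For ACBI1 the change in the log2 effect was 2.22 for Tlr3 (limma, adjusted p = 8.10e-05), 1.61 for Tlr9 (0.0178), 0.68 for Tlr4 (0.0327), 0.64 for Tlr1 (0.00374) and 0.49 for Tlr6 (0.00907), beside 18.5% of all tested genes. For BRM014 it was -2.81 for Tlr2 (5.91e-09), -0.996 for Tlr6 (5.60e-05), -0.83 for Tlr1 (0.000775), -0.81 for Tlr7 (0.0451), -0.79 for Tlr4 (0.0246) and -0.68 for Cd14 (0.0159), beside 13.3%. For BRDK98 it was -1.42 for Tlr2 (3.35e-06), beside 6.66%.

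Between 60 min (experiment 4) and 4 hr (experiment 1) the same compound had opposite directions in every library for some genes, on TPM as deposited. These differences span separate tables and were not tested. The effect at 60 min minus that at 4 hr was -6.33 for Tlr2 and -2.18 for Cd14 with BRM014. With ACBI1 it was -3.10 for Tlr2, 1.08 for Tlr4, 0.88 for Tlr6, 1.58 for Tlr8 and 1.46 for Tlr9. With BRDK98 it was -2.64 for Tlr2, -1.40 for Tlr3 and -1.10 for Tlr7. Both effects were called for Tlr2 and Cd14 with BRM014 and for Tlr4 with ACBI1, and for the other 7 at least 1 of them was not. Tlr2 with ACBI1 at 60 min stood at -0.20 (limma, adjusted p = 0.0856), and Tlr7 with BRDK98 at 4 hr was 0.67 as deposited and 0.02 after median-ratio scaling.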

How the results depend on the processing

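Alternatives turned the direction of 6 results not called in the main fit, counting only sign changes where either fit made a call. Changes of sign that neither fit called were left out of this count. Under median-ratio scaling alone and under voom on recovered reads, Tlr2 at 4 hr in experiment 1 was at 0.69 and 0.59, Tlr8 at 4 hr in experiment 1 at 0.56 and 0.47 and in experiment 2 at 0.43 and 0.43, and Tlr6 at 1 hr in experiment 1 at 0.37 and 0.43. Ly96 at 1 hr in experiment 1 was at 0.42 under voom, and Tlr9 at 4 hr in experiment 3 at 0.41 without the first control library. The count of called members moved under voom to 8 (1 hr against rest), 8 (4 hr against rest) and 9 (BRDK98 at 4 hr) in experiment 1. With each scaling alone the count at 4 hr against rest was 8, and with TPM as deposited alone it was 8 for BRDK98 at 4 hr and 1 at 20 min against rest. In a fit of only the 2 groups compared it was 8 for BRDK98 at 4 hr, 1, 3 and 4 for ACBI1, BRM014 and BRDK98 at 20 min, 1 at 20 min against rest, 6 for BRDK98 at 60 min and 3 for BRM014 at 60 min. With no filter, 3 members were called for Arid1a-/- at 4 hr. The cause was not tested. The share of all tested genes called under each alternative was not counted, so these member counts have no background beside them. The same holds for the counts below with a library left out or with the replicate block.

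Leaving out 1 library at a time gave counts of 4 to 6 (1 hr) and 5 to 5 (4 hr) against rest in experiment 1, of 6 to 6, 8 to 8 and 4 to 4 for ACBI1, BRM014 and BRDK98 at 4 hr, of 4 to 5 (1 hr) and 6 to 7 (4 hr) against rest in experiment 2, of 6 to 7 and 2 to 3 for Arid1a-/- at 1 and 4 hr, of 6 to 7 for 4 hr and 0 to 3 for Pbrm1-/- in experiment 3, and in experiment 4 of 0 to 1 (20 min) and 4 to 5 (60 min) against rest, 0 to 0 for each compound at 20 min, and 2 to 3, 6 to 9 and 3 to 3 for ACBI1, BRM014 and BRDK98 at 60 min. The single 1 called at 20 min was Tlr3 (-0.92) without the second resting library. The 4 hr control of experiment 1 could not be left out.

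Replicate numbers are shared between groups, but no label says that they pair samples, and the correlations of same-numbered deviations ran from -0.239 to 0.236. With the number as a block, 4 members in place of 6 were called for Arid1a-/- at 4 hr (Tlr1 at adjusted p = 0.0599 and Tlr6 at 0.0574 were not called) and 3 in place of 4 for ACBI1 at 60 min (Tlr4, 0.0536). The block left the other counts as they were. Precision is limited by 2 libraries per group and, for Tlr9 in Arid1a-/- cells at 1 hr, by 4 and 15 reads.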

Other observations

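Among Toll-like receptor genes outside the 10, Tlr13 was well expressed at rest, at 102.7 to 184 TPM, and stood at 17.7 to 51.3 TPM in the 4 hr controls. At 4 hr of lipid A its mean was 56.2 TPM with BRM014 and 6.33 TPM with BRDK98, against 17.7 TPM in the control (log2 differences 1.61 and -1.35, limma, adjusted p = 1.41e-05 and 5.60e-05). At 60 min it was 52.4 TPM with BRM014 against 131 TPM (limma, adjusted p = 4.66e-07). Tlr12 did not exceed 0.701 TPM in any library. Tlr11, named after its values were seen, had a mean of 3.91 TPM with ACBI1 at 60 min against 0.202 TPM in the control (log2 difference 2.03, limma, adjusted p = 8.47e-08). Tlr5, the flagellin receptor, also named after its values were seen, stood at 0.995 and 0.951 TPM with ACBI1 at 60 min against 3.62 and 4.60 TPM in the control, a decrease of 1.37 (limma, adjusted p = 4.4e-05), and at 7.72 and 7.59 TPM at rest.

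The authors' deposited tables held more of the 10 genes at their adjusted p under 0.05 than were called here in most comparisons. The share of all genes that those tables list at that threshold was not counted. These member counts therefore have no background beside them. For lipid A at 4 hr in experiment 1, the authors' deposited table listed 9 as higher and 0 as lower, against 5 and 0 here. At 4 hr the authors' deposited table listed 2 higher and 8 lower with BRM014, 2 and 7 with BRDK98 and 2 and 6 with ACBI1, the BRDK98 count here being 0 and 5. At 20 min the authors' deposited tables listed 2 higher and 3 lower with ACBI1, 0 and 3 with BRM014 and 0 and 5 with BRDK98, where 0 were called here. At 60 min the authors' deposited tables listed 7 higher and 0 lower with ACBI1, 0 and 7 with BRM014 and 0 and 6 with BRDK98. For Arid1a-/- the authors' deposited tables listed 7 genes as lower at 1 hr with none higher, and 7 as lower at 4 hr beside 1 higher, and for Pbrm1-/- 0 in either direction.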
